A study of Mus musculus with 9 samples.

Results

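The comparison of 7 against 3 days of YAP induction covered 7 of the 9 mouse liver libraries of the study, all from mice that carried the YAP transgene. They were taken by their labels: 4 libraries from mice given doxycycline food for 3 days (YAP3d, acute induction) and 3 from mice given it for 7 days (YAP7d, tonic induction). All 7 mice were C57BL/6 with the genotype ROSA26-rtTA-IRES-EGFP; tetYAP. The study's methods add a LoxP-stop-LoxP cassette before the transactivator rtTA, an Alb-Cre driver that removes it, and YAP S127A as the form of YAP that tet control switches on. The 2 WT libraries, from mice with rtTA but without tetYAP that had doxycycline for 7 days, enter here as background values. Mouse age is not given in the sources used here. Each library was counted as 1 replicate and read as the sum of the unique molecular identifiers (UMIs, 1 per captured transcript) of its cells with at least 200 detected genes. That gave 6590 of the 8527 cells kept in the whole series, 3696 of YAP3d and 2894 of YAP7d.

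YAP is a transcriptional co-activator at the end of the Hippo pathway. The kinase LATS phosphorylates YAP and its relative TAZ (gene Wwtr1) and holds them in the cytoplasm. Unphosphorylated YAP enters the nucleus and works through the TEAD family of DNA-binding proteins. YAP S127A lacks an inhibitory phosphorylation site and is constitutively active, and in liver it is known for driving growth of the organ and loss of hepatocyte identity. Albumin is made by hepatocytes, so Alb-Cre directs the induction to them. The digest sampled here held mainly other cells: macrophages (Kupffer cells are the resident macrophages of the liver), sinusoidal endothelial cells that line its capillaries, and lymphocytes. Hepatocyte-like cells gave 0.515 to 3.94% of the UMIs of a library. What follows is therefore mostly a record of the cells around the hepatocytes.

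The 2 groups differed in depth and in single libraries as well as in time. Kept cells ranged from 281 to 2551 per YAP3d library and from 461 to 1834 per YAP7d library, with 1288940 to 13084920 UMIs and 4160318 to 25056881 UMIs. The median UMIs per cell were 4123 ± 727 in YAP3d (SD, n = 4 libraries) and 8245 ± 2940 in YAP7d (n = 3), without overlap. The exact two-sided permutation p was 0.0286, the smallest that 3 against 4 libraries allow. The study's methods give the same kit version for all whole-tissue libraries. Over all 9 libraries 46 of 8480 cell barcodes were shared, and 61 cells called as doublets (0.715%) were kept. The pseudogene Gm10709 was at 347, 428, 4.69 and 11.2 CPM (UMIs of a gene scaled to 1000000 per library) in YAP3d replicates 1 to 4 and at 363, 392 and 611 CPM in YAP7d replicates 1 to 3. YAP3d replicates 3 and 4 were thus at the level of WT (mean 7.35 CPM) and the other libraries well above it. Fits with a term for the libraries that held it are given below, and its part in the results was otherwise not tested.

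Cells were clustered and classes named after the type whose markers they raised. Macrophage-like cells supplied 46.9 ± 13.6% of the UMIs of a YAP7d library and 8.74 ± 6.86% of those of a YAP3d library. The single values were 4.51, 18.8, 7.45 and 4.21% in YAP3d and 39.6, 62.6 and 38.6% in YAP7d, so the 2 groups did not overlap. The exact two-sided p was 0.0286, which became 0.186 after Benjamini-Hochberg adjustment over 13 classes. As shares of cells, macrophage-like cells were 31.3% in YAP7d and 6.52% in YAP3d (exact p 0.0286, adjusted p 0.124). Endothelial-like cells went the other way, with 22.4, 7.16, 33.0 and 28.3% of UMIs in YAP3d and 3.88, 5.33 and 3.58% in YAP7d. YAP3d replicate 2 lay closest to YAP7d, and the groups did not overlap (exact p 0.0571, adjusted 0.186). T-cell-like cells supplied 29.2, 19.2, 28.4 and 21.2% in YAP3d and 10.1, 7.07 and 6.65% in YAP7d (exact p 0.0286, adjusted 0.186). B-cell-like cells supplied 8.76, 3.62, 7.96 and 20.1% in YAP3d and 1.90, 3.61 and 1.29% in YAP7d (exact p 0.0571, adjusted 0.186), and as shares of cells the groups overlapped (exact p 0.257). Monocyte-like cells were at 30.3% in YAP3d replicate 2 but at 2.07 to 4.57% in the other YAP3d libraries, and at 6.75 to 28.7% in YAP7d, so the groups overlapped (p 0.486). NK-like, conventional dendritic (cDC-like) and hepatocyte-like shares gave exact p-values of 0.4, 0.371 and 0.914.

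**Figure D1:**
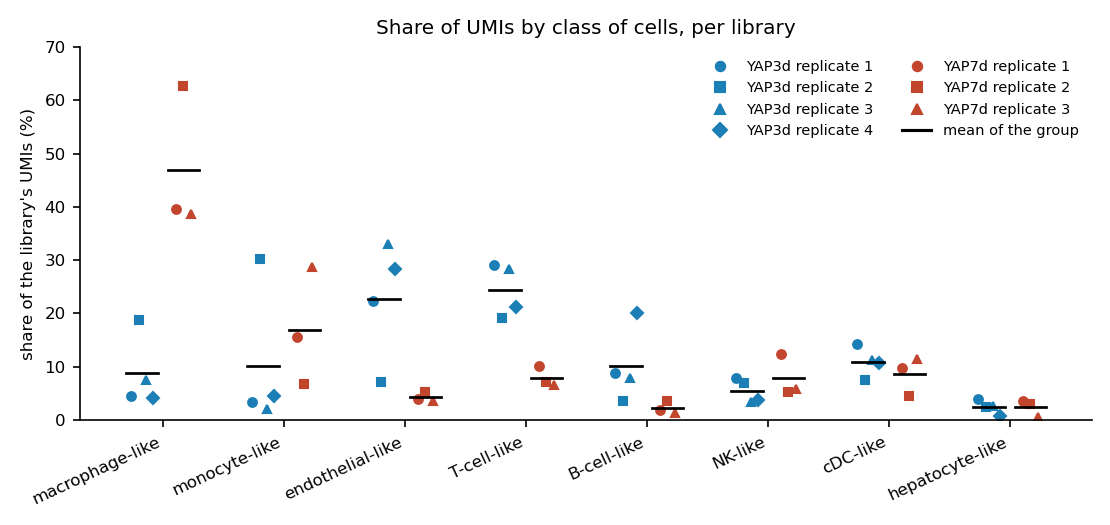
Share of a library's UMIs (percent, vertical axis) supplied by each class in the 4 YAP3d and 3 YAP7d libraries, 1 point per library and a bar at the group mean. Macrophage-like cells sat between 38.6 and 62.6% in YAP7d against 4.21 to 18.8% in YAP3d, and endothelial-like cells between 3.58 and 5.33% against 7.16 to 33.0%.

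The UMIs counted per cell differed by class as well. The median UMIs of a macrophage-like cell were 14821 ± 6572 in YAP7d and 4830 ± 2046 in YAP3d, a ratio of 3.07. The ratio was 3.02 in endothelial-like and 1.79 in NK-like cells, with exact p 0.0286 and adjusted p 0.0571 in each of these 3 classes, but 1.11 in T-cell-like (p 0.257), 1.10 in B-cell-like (p 0.771) and 1.25 in cDC-like cells (p 0.4). The sums over all cells mix cell numbers with RNA per cell, so the shares of cells stand beside them. Endothelial-like cells were 26.8% of cells in YAP3d and 4.16% in YAP7d (exact p 0.0571, adjusted p 0.186), and T-cell-like cells were 26.5 and 13.5% (exact p 0.0286, adjusted p 0.124).

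Over all cells, 1566 of 11430 genes tested differed between 7 and 3 days (13.7%) with the quasi-likelihood test of edgeR at an adjusted p below 0.05. Of these, 668 were higher in YAP7d (5.84%) and 898 lower (7.86%). Values of the 2 groups did not overlap for 619 of the 668 and 828 of the 898, against 1033 of all genes tested that lay higher without overlap (9.04%) and 2128 that lay lower (18.6%). YAP3d replicate 2 was the YAP3d library nearest to YAP7d for 450 of the genes that were higher (67.4%) and 782 of those that were lower (87.1%). CPM are per library total, whereas log2FC, the log2 fold change of YAP7d over YAP3d, is scaled by TMM. With library totals alone the median log2FC of all genes was -0.19 in place of -0.02, a shift of -0.17, and the calls were 386 higher and 1091 lower, or 26.1% higher against 42.7%. The count rested on single libraries. Without YAP7d replicate 2 it was 0 (3100 at an unadjusted p under 0.05) and without YAP7d replicate 3 it was 3 (2962 unadjusted), against 3724 unadjusted with all 7, so the counts of passed genes over all cells hold only with both in the fit. It was 542 without YAP7d replicate 1, 617, 379 and 497 without YAP3d replicates 1, 3 and 4, and 3232 without YAP3d replicate 2. With a term for the libraries with Gm10709 it was 0 (2103 unadjusted). In this fit and in those without YAP7d replicate 2 or 3 the log2FC of all 1566 genes kept its direction. These genes had been called on the same libraries, most of them without overlap. Their direction could thus hardly change, and the count is a description. DESeq2 called 2211 genes, 962 higher and 1249 lower.

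The largest rises included several genes known from macrophages. Fabp7, a fatty acid-binding protein, was at 27.2, 168, 51.6 and 36.8 CPM in YAP3d replicates 1 to 4 and 401, 1357 and 324 CPM in YAP7d replicates 1 to 3 (log2FC 3.40, SE 0.694, adjusted p 0.0174, edgeR). Every YAP7d library was above every YAP3d library, among which replicate 2 was highest, and WT averaged 40.9 CPM. Ccl24, the eotaxin that binds the receptor Ccr3, was at 36.5, 86.9, 30.5 and 31.6 CPM in YAP3d replicates 1 to 4 and 313, 633 and 151 CPM in YAP7d replicates 1 to 3 (log2FC 3.09, SE 0.502, adjusted p 0.0117). Ccr3 itself, best known from eosinophils, was at 7.76, 8.26, 2.35 and 8.18 CPM in YAP3d replicates 1 to 4 and 31.9, 129 and 16.6 CPM in YAP7d replicates 1 to 3 (log2FC 3.15, SE 0.654, adjusted p 0.0179). Ligand and receptor both rose over all cells, with YAP7d replicate 2 highest for each. That library also had the largest macrophage-like share of UMIs (62.6%). Within macrophage-like cells Ccr3 averaged 83.4 ± 61.8 CPM in YAP3d and 107 ± 85.9 CPM in YAP7d (log2FC 0.27, SE 0.715, adjusted p 0.933). Ccl24 averaged 508 ± 216 CPM in YAP3d and 712 ± 324 CPM in YAP7d there (log2FC 0.48, SE 0.343, adjusted p 0.625), so neither passed in the class. Cd5l, an apoptosis inhibitor secreted by tissue macrophages, was at 219.6, 402, 231 and 169 CPM in YAP3d replicates 1 to 4 and 1189.9, 2954 and 868 CPM in YAP7d replicates 1 to 3 (log2FC 2.85, SE 0.422, adjusted p 0.0117). Its lowest YAP7d value was above its highest YAP3d value, and WT averaged 251 CPM. The other large rises with a known role were Cxcl14 (3.24), a chemokine, Gpx3 (3.03), a secreted glutathione peroxidase, Cd300e (2.85), a receptor of myeloid cells, Lpl (2.78), lipoprotein lipase, Lilra5 (2.46), an immunoglobulin-like receptor of myeloid cells, C1qb (2.39) and C1qc (2.36), subunits of complement C1q, and Cd207 (2.34), the lectin langerin, all as log2 fold changes. Ttc39c (2.67) and Tmem86a (2.34) belonged to the 15 as well. Tk1, thymidine kinase of S phase, was the member of the 15 that marks dividing cells of any type, at 22.5, 35.7, 22.3 and 9.09 CPM in YAP3d replicates 1 to 4 and 107, 171 and 113 CPM in YAP7d replicates 1 to 3 (log2FC 2.74, SE 0.385, adjusted p 0.0117).

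Within macrophage-like cells these 15 genes did not pass. Their log2 fold changes there ran from -0.55 (Cd207) to 2.81 (Ttc39c), with a median of 0.29 against 2.78 over all cells, and 0 of 15 passed. The class as a whole had 4 genes past the test among 5823 (0.0687%), with 676 at an unadjusted p under 0.05 and 38 called by DESeq2. All 4 fell: Ehd3 (-3.45), Clec4g (-3.09), Cd209f (-3.82), a lectin of the DC-SIGN family, and Cd55 (-2.33), an inhibitor of complement. Clec4g averaged 89.2 ± 62.98 CPM in YAP3d and 12.9 ± 4.55 CPM in YAP7d in the class, and the part of free RNA from endothelial cells was not tested. Its count was 1 without YAP7d replicate 3, 10 without YAP7d replicate 1 and 538 without YAP3d replicate 2, and YAP3d replicate 1 entered with 12 macrophage-like cells. Of the 668 genes higher over all cells, 556 were tested in the class, 427 of them pointed the same way, and the median there was 0.40. Cluster 14, led by Cd5l, Clec4f and Vsig4, held 83.3% of the macrophage-like cells of YAP3d and 49.2% of those of YAP7d, and cluster 6, led by C1q genes, the rest.

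**Figure D2:**
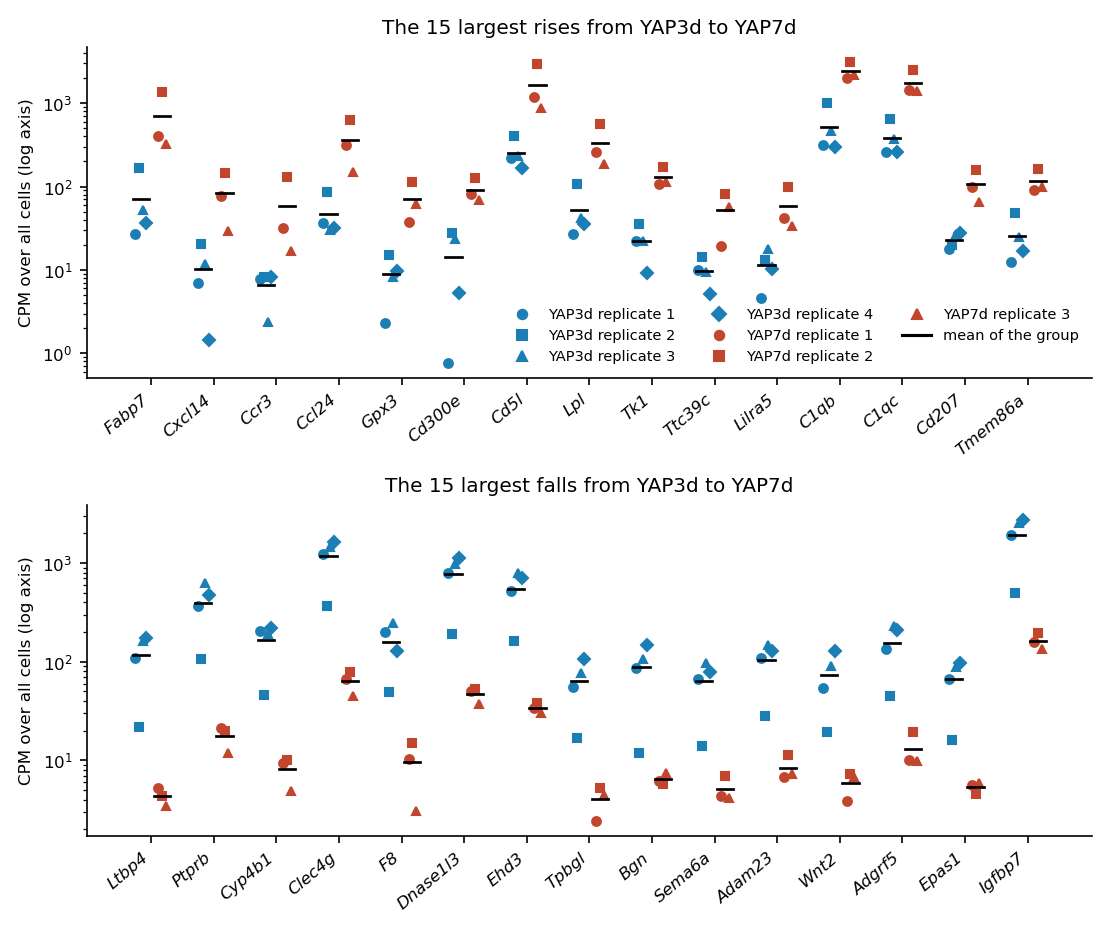
CPM per library on a log axis for the 15 largest rises and the 15 largest falls over all cells, YAP3d libraries in blue and YAP7d libraries in red. The groups did not overlap for any of the 30 genes, as the naming rule required, and YAP3d replicate 2 often lay nearest to YAP7d, for instance at 86.9 CPM of Ccl24 and 364 CPM of Clec4g.

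The largest falls included several genes known from the sinusoidal endothelium. Ltbp4, which binds latent TGF-beta in the matrix, was at 109, 21.8, 161 and 175 CPM in YAP3d replicates 1 to 4 and 5.25, 4.33 and 3.47 CPM in YAP7d replicates 1 to 3 (log2FC -4.59, SE 0.664, adjusted p 0.0117, edgeR). Clec4g, the lectin LSECtin of sinusoidal cells, was at 1227, 364, 1444 and 1643 CPM in YAP3d replicates 1 to 4 and 66.3, 78.8 and 44.6 CPM in YAP7d replicates 1 to 3 (log2FC -4.05, SE 0.501, adjusted p 0.0117). F8, coagulation factor VIII, was at 202, 49.2, 248 and 128 CPM in YAP3d replicates 1 to 4 and 10.3, 15.1 and 3.03 CPM in YAP7d replicates 1 to 3 (log2FC -3.96, SE 0.633, adjusted p 0.0117). For each of these 3 genes the highest YAP7d library was below YAP3d replicate 2, itself the lowest of its group, and WT averaged 184, 2171 and 276 CPM. Wnt2, a ligand that endothelial cells send to hepatocytes, was at 53.5, 19.5, 90.96 and 127 CPM in YAP3d replicates 1 to 4 and 3.85, 7.21 and 6.70 CPM in YAP7d replicates 1 to 3 (log2FC -3.43, SE 0.611, adjusted p 0.0132). The others included Ptprb (-4.33), a phosphatase of endothelial junctions, Dnase1l3 (-3.88), a secreted nuclease, Epas1 (-3.42), the hypoxia factor HIF-2 alpha, Adgrf5 (-3.43), an adhesion receptor, Sema6a (-3.48), a semaphorin, Bgn (-3.55), a matrix proteoglycan, Igfbp7 (-3.39), which binds insulin-like growth factors, Cyp4b1 (-4.22), a cytochrome P450, Ehd3 (-3.82), a membrane trafficking ATPase, and Adam23 (-3.44) and Tpbgl (-3.79).

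All 15 falls were tested and passed within endothelial-like cells, by smaller amounts, where 12.0% of all genes tested fell. The 15 had been chosen on sums that hold these same cells, so the count is a description. The class values ran from -2.38 (Ltbp4) to -1.06 (Wnt2) with a median of -1.55. Clec4g averaged 4981 ± 512 CPM in YAP3d and 1290.0 ± 193 CPM in YAP7d there (log2FC -1.90, SE 0.144, adjusted p 1.52e-07), and Wnt2 297 ± 79.6 CPM in YAP3d and 131 ± 45.1 CPM in YAP7d (log2FC -1.06, SE 0.265, adjusted p 0.0101). Of the 539 genes lower over all cells that could be tested in the class, 250 fell there too (12.0% of all genes in the class did) and 10 passed in the other direction. Of the 281 that were higher over all cells, 123 rose (12.8% of all genes in the class did) and 7 fell. Without endothelial-like cells in the sums, 449 of 11071 genes were lower (4.06%) in place of 898. The class was held by other clusters at each time: cluster 22 (led by Pcdh17, Mest and Lyve1) held 82.0% of the endothelial-like cells of YAP7d and 0.755% of those of YAP3d, and clusters 8 and 9 held 52.7 and 33.4% in YAP3d and 6.31 and 3.60% in YAP7d. YAP7d libraries entered with 24, 23 and 64 endothelial-like cells.

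**Figure D3:**
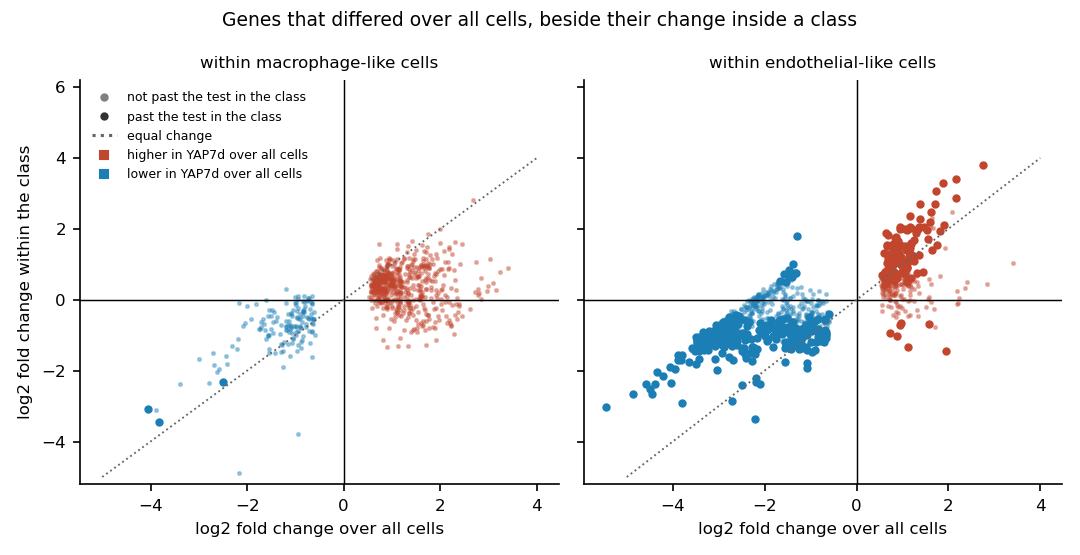
Log2 fold change between YAP7d and YAP3d over all cells (horizontal axis) against that within a class (vertical axis), 1 point per gene called over all cells and tested in the class, red for genes higher in YAP7d over all cells and blue for genes lower. Dark points passed the test in the class. In macrophage-like cells 0 of 556 red and 3 of 149 blue genes passed in the same direction, in endothelial-like cells 123 of 281 and 250 of 539. The dotted line marks equal change.

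Gene lists by function and cell type are each read beside the 5.84% of all genes that rose and the 7.86% that fell. Of 12 macrophage markers 9 rose and 0 fell (median log2 fold change 2.20 against -0.02 for all genes), and their summed level ran over 1589 to 4132 CPM in YAP3d and 7592 to 15409.6 CPM in YAP7d. Of 15 Kupffer cell identity genes 9 rose and 0 fell (median 1.89). Clec4f, the Kupffer cell lectin, was at 187, 273, 186 and 157 CPM in YAP3d replicates 1 to 4 and 737, 1469 and 352 CPM in YAP7d replicates 1 to 3 (log2FC 2.22, SE 0.387, adjusted p 0.0128). Vsig4 (2.23), a complement receptor, and Timd4 (2.31), which binds phosphatidylserine on dying cells, rose as well. Within macrophage-like cells 15 Kupffer genes were tested, 0 passed and the median was -0.70. Without macrophage-like and monocyte-like cells in the sums 263 of 9779 genes were higher over all (2.69%), and 0 of 12 Kupffer genes tested passed.

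Of 14 cathepsin and lysosome genes 8 rose and 0 fell (median 0.93): Ctss (1.57), Ctsb (1.36) and Lgmn (1.69) are lysosomal proteases and Ifi30 (2.09) a lysosomal reductase of antigen processing. Without macrophage-like and monocyte-like cells 1 of 14 rose and 1 fell, and Lgmn was at -0.34. Of 17 complement genes 7 rose and 4 fell. C1qa was at 311, 677, 444 and 297 CPM in YAP3d replicates 1 to 4 and 1457, 2494 and 1346 CPM in YAP7d replicates 1 to 3 (log2FC 2.19, SE 0.327, adjusted p 0.0117), without overlap. The complement inhibitors Cd55 and Cd59a fell. Cd55 was at 346, 132, 357 and 300.0 CPM in YAP3d replicates 1 to 4 and 47.1, 60.1 and 27.7 CPM in YAP7d replicates 1 to 3 (log2FC -2.50, SE 0.357, adjusted p 0.0117), and Cd59a was at 27.1 to 141 CPM in YAP3d and 10.5 to 18.99 CPM in YAP7d (log2FC -2.75, SE 0.518, adjusted p 0.0143). Of 12 iron and heme genes 3 rose, among them Slc40a1, the iron exporter ferroportin, at 109 to 158 CPM in YAP3d and 206 to 817 CPM in YAP7d (log2FC 1.96, SE 0.366, adjusted p 0.014). Without macrophage-like and monocyte-like cells it was at -0.78 on the log2 scale. Of 15 lipid-associated macrophage genes 4 rose and 0 fell.

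MHC class II and monocyte genes did not pass with all 7 libraries in the fit. In the fit without YAP3d replicate 2, monocyte markers gave 7 rises of 12 (median 2.03). MHC class II genes gave 4 falls of 10 there (median -0.42). Of all genes in that fit, 1577 of 11591 rose and 1655 fell. The counts that follow are those with all 7 libraries. Of 10 MHC class II genes 0 rose and 0 fell (median -0.38), with 5 lower in YAP7d without overlap, as were 18.6% of all genes tested. Cd74, the invariant chain, was at 6463, 6141, 6353 and 9132 CPM in YAP3d replicates 1 to 4 and 5185, 3472 and 4842 CPM in YAP7d replicates 1 to 3 (log2FC -0.46, SE 0.249, adjusted p 0.228). Within macrophage-like cells the summed level of the list was 11313, 8807, 18082 and 21773 CPM in YAP3d and 6971, 3461 and 5601 CPM in YAP7d, with 0 of 6 tested past the test (median -1.55). The groups did not overlap there either. Of 18 MHC class I genes 2 fell and 0 rose. Of 12 monocyte markers 0 passed (median 0.89). Lyz2, lysozyme, was at 1079, 7636, 1111 and 2741 CPM in YAP3d replicates 1 to 4 and 3892, 4242 and 7081 CPM in YAP7d replicates 1 to 3. Chil3, a chitinase-like protein of myeloid cells, was at 32.6, 1266, 37.6 and 113 CPM in YAP3d replicates 1 to 4 and 397, 374 and 1976 CPM in YAP7d replicates 1 to 3. YAP3d replicate 2 lay above all YAP7d libraries for Lyz2, as for the monocyte-like share of UMIs, and between them for Chil3.

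Cell cycle genes rose together: 28 of 34 genes of S phase and DNA replication rose (median 1.36) and 30 of 36 of G2 phase and mitosis (median 1.77), with 0 falls in either. With each cell thinned to 2000 UMIs, 13 of 29 S phase genes and 16 of 25 mitosis genes rose, against 359 of 8355 genes tested. As background, mitotic genes are known for CHR elements (TTTGAA) and CCAAT boxes near their start sites, read by the DREAM complex and NF-Y, whereas S phase genes are driven by E2F. To show these letters, the promoters of 3 mitotic genes that moved here, picked because they hold a motif, are printed with both motifs in capitals, from 250 bases before to 50 after the RefSeq start (GRCm38.p6), 5′ to 3′ on the gene's strand: Top2a, which encodes the topoisomerase that untangles chromosomes, at chr11:99024140-99024439 on the minus strand, Cks2, a subunit of cyclin-dependent kinases, at chr13:51644982-51645281 on the plus strand, and Cenpa, the histone variant of centromeres, at chr5:30666636-30666935 on the plus strand.
Top2a: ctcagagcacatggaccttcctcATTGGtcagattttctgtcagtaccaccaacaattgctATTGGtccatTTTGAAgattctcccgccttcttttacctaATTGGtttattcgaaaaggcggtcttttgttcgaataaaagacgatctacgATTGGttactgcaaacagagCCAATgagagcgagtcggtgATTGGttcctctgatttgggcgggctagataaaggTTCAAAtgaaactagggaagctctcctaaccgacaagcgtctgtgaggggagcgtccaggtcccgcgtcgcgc
Cks2: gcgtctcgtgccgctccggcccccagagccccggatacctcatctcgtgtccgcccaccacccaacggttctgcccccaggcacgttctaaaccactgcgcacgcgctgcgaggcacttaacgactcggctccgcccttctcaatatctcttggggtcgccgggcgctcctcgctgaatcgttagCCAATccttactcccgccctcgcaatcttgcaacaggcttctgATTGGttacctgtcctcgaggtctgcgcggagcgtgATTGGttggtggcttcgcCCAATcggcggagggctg
Cenpa: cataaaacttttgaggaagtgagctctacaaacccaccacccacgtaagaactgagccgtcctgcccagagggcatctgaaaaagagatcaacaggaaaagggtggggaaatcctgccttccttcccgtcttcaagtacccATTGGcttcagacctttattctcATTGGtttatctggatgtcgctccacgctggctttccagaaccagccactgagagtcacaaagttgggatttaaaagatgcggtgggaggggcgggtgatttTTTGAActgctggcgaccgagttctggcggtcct
Top2a held 2 TTTGAA and 6 CCAAT, Cks2 no TTTGAA and 4 CCAAT, and Cenpa 1 and 2, counted on both strands. The window of Birc5, a mitotic gene that also rose, held neither motif. Over the G2 and mitosis list TTTGAA lay in 22 of 30 promoters (73.3%), over the S phase list in 3 of 34 (8.82%), and over all 32851 RefSeq promoters of this length in 17.9%. CCAAT lay in 25 of 30 (83.3%), 19 of 34 (55.9%) and 37.4%. Promoters were found for 29 of the 36 and 29 of the 34 genes, and the shares describe the letters of these windows alone.

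Over all cells Top2a was at 29.5, 75, 67.5 and 17.3 CPM in YAP3d replicates 1 to 4 and 140.2, 171 and 72.4 CPM in YAP7d replicates 1 to 3 (log2FC 1.60, SE 0.46, adjusted p 0.049), with YAP7d replicate 3 below YAP3d replicate 2. Birc5, survivin, which acts at the centromere in mitosis, was at 13.2, 52.9, 43.4 and 20.02 CPM in YAP3d replicates 1 to 4 and 96.8, 132 and 132 CPM in YAP7d replicates 1 to 3 (log2FC 2.07, SE 0.411, adjusted p 0.016) without overlap. Cks2 rose by 1.16, Cenpa by 0.95 and Dut, which clears dUTP before replication, by 0.91 on the log2 scale. Pcna, the replication clamp, was at 75.7 to 115 CPM in YAP3d and 108 to 142 CPM in YAP7d (log2FC 0.50, SE 0.173, adjusted p 0.0823). Slbp, which binds histone mRNA, was at 94 to 140.4 CPM in YAP3d and 80.02 to 139 CPM in YAP7d (log2FC 0.03, SE 0.183, adjusted p 0.919). Without macrophage-like and monocyte-like cells, 18 of 33 S phase genes and 21 of 33 mitosis genes rose, so rises were also counted in the other cells.

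Within classes, cell cycle genes passed the test in 3 of the 5 classes tested. In NK-like and in endothelial-like cells 17 of the 34 S phase genes had counts enough to test. Of the 36 mitosis genes 7 and 12 did. A gene could enter through the YAP7d libraries alone, so the counts below describe only the members tested. In NK-like cells the summed S phase level was 596, 1339, 624 and 684 CPM in YAP3d and 3598, 2661 and 2195 CPM in YAP7d, without overlap, and 14 of 17 genes tested rose (median 1.85) against 9.89% of all genes tested in the class. In endothelial-like cells 15 of 17 rose (median 1.69) against 12.8%, and the summed G2 and mitosis level was 583, 434, 868 and 204 CPM in YAP3d and 2064, 1254 and 1509 CPM in YAP7d. In T-cell-like cells 8 of 23 S phase and 12 of 23 mitosis genes rose against 1.18%. Of the mitosis list 6 of 12 rose in endothelial-like and 4 of 7 in NK-like cells. In macrophage-like cells 0 of 30 and 0 of 28 passed (medians 0.84 and 0.93), with summed S phase levels of 1188, 1629.9, 1576 and 588 CPM in YAP3d and 2135, 2058 and 1879.8 CPM in YAP7d. Those of YAP7d were all higher, and those of YAP3d differed among themselves by over 1000 CPM. B-cell-like cells had 1 S phase gene high enough to test, and 0 of 1822 genes of any kind passed in the class (0.0%; edgeR, 113 at an unadjusted p under 0.05, and 0 by DESeq2).

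**Figure D4:**
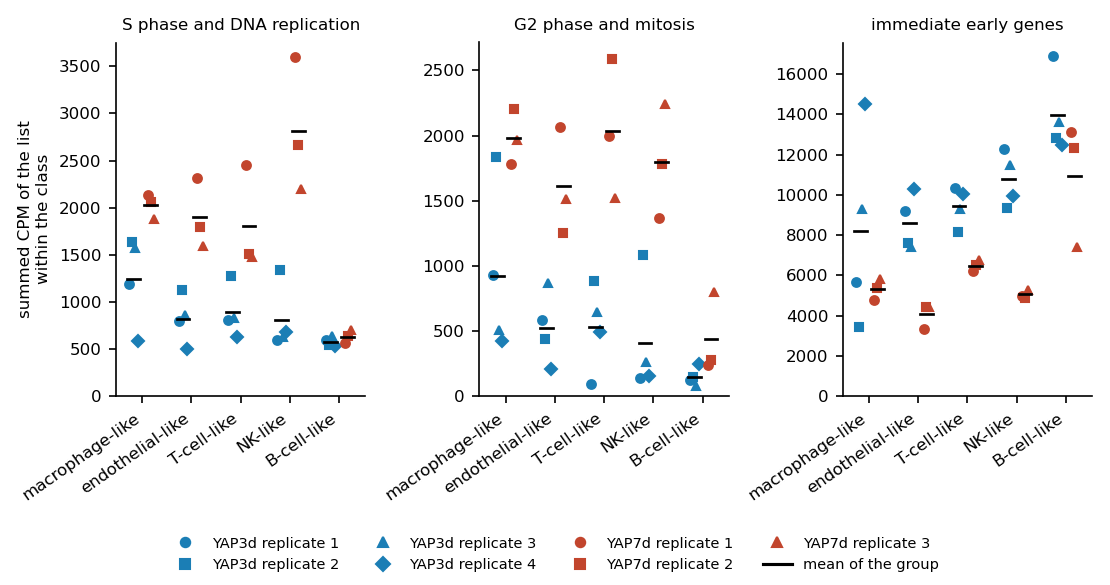
Summed CPM of the S phase, G2 and mitosis, and immediate early lists within 5 classes, 1 symbol per library (blue YAP3d, red YAP7d) and a bar at the group mean. In NK-like cells the S phase sum lay between 2195 and 3598 CPM in YAP7d against 596 to 1339 CPM in YAP3d, while the immediate early sum lay between 4894 and 5273 CPM against 9336 to 12283 CPM.

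Single genes within NK-like cells, the natural killer class, moved far in both directions. Cxcr6, the receptor that holds lymphocytes in the sinusoids, averaged 251 ± 84.7 CPM in YAP3d and 17.8 ± 15.7 CPM in YAP7d (log2FC -3.34, SE 0.433, adjusted p 0.000332, edgeR), and E2f1, the factor that drives S phase genes, 2.41 ± 4.81 CPM in YAP3d and 65.6 ± 15.5 CPM in YAP7d, with 3 of the 4 YAP3d libraries at 0. E2f1 thus had counts enough to test only through YAP7d, and its fold rests on 1 YAP3d library: the log2FC was 4.72 with all 7 libraries and ran from 3.65 to 8.06 when 1 was left out (highest without YAP3d replicate 2, lowest without YAP3d replicate 4). Cdca8 (3.98) and Spc24 (3.41), which act in chromosome segregation, and Mcm3 (3.14), a part of the replicative helicase, rose in log2 terms from YAP3d means of 4.11 ± 6.95, 9.71 ± 13.6 and 11.4 ± 15.9 CPM. Each of these SDs was above its mean, and the YAP7d means were 73.5, 89.2 and 132 CPM. Like E2f1, these genes thus had counts enough to test mainly through YAP7d. Without YAP3d replicate 2 they were at 5.47, 5.68 and 3.896, and without YAP3d replicate 4 at 3.27, 2.35 and 2.89. Asb2 (-3.00), a subunit of a ubiquitin ligase, Kcnj8 (-2.78), a potassium channel, and Dtx1 (-2.77), a Notch regulator, fell. In all 329 genes rose (9.89%) and 238 of 3326 fell (7.16%), and a term for Gm10709 gave 138 calls in place of 567. Without YAP3d replicate 1 or 4 the calls were 373 and 377. Of 12 cytotoxic genes tested 4 fell and of 4 chemokine receptors 2. Cluster 7, led by Klra4 and Klra8, held 77.1% of the NK-like cells of YAP7d and 41.3% of those of YAP3d.

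T-cell-like cells had 68 genes higher (1.18%) and 12 lower (0.209%) of 5745. Cluster 2, led by Cd40lg and Il4, made up 49.6% of the class in YAP3d and 31.9% in YAP7d, and cluster 12, led by Gzmk and Il17a, made up 11.9 and 26.9%. Rrm2, the ribonucleotide reductase subunit of S phase, averaged 14.8 ± 6.54 CPM in YAP3d and 101 ± 30.3 CPM in YAP7d (log2FC 2.55, SE 0.313, adjusted p 0.000702), and Cenpf (2.69) and Tk1 (2.74) rose as well. Dtx1, here too, fell (log2FC -1.41, SE 0.275, adjusted p 0.0249), as did Mxd4 (-1.10), an antagonist of MYC. Macrophage genes were among the rises of this class. Cd5l averaged 9.75 ± 4.39 CPM in YAP3d and 81.7 ± 19.7 CPM in YAP7d and C1qb 18.1 ± 10.3 CPM in YAP3d and 118 ± 52.3 CPM in YAP7d, while in B-cell-like cells Cd5l averaged 14.5 ± 12.2 CPM in YAP3d and 79.04 ± 9.86 CPM in YAP7d. The part of free RNA in these rises was not tested. The count of the class was 80, which became 31 without YAP3d replicate 1, 9 without YAP3d replicate 3, 24 without YAP7d replicate 1 and 18 without YAP7d replicate 2, and 7 with the Gm10709 term.

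Endothelial-like cells had 591 genes higher (12.8%) and 555 lower (12.0%) of 4626, and with the Gm10709 term 516 calls in place of 1146. Tk1 averaged 13.03 ± 8.44 CPM in YAP3d and 93.3 ± 24.9 CPM in YAP7d there (log2FC 3.81, SE 0.551, adjusted p 0.000229), Ccnb2, the cyclin B of mitosis, 8.88 ± 7.65 CPM in YAP3d and 60.98 ± 22.3 CPM in YAP7d, and Slc1a5, a glutamine transporter, 4.59 ± 4.27 CPM in YAP3d and 64.8 ± 6.69 CPM in YAP7d (log2FC 3.18, SE 0.483, adjusted p 7.93e-05). For Ccnb2 and Slc1a5 the YAP3d means were low, with SDs close to the means. With 1 library left out, the log2FC ran from 2.63 to 4.21 for Tk1 and from 2.87 to 4.93 for Slc1a5. Ccnb2 had counts enough to test in 4 of these 7 fits. Over all cells Slc1a5 was at -0.14 (adjusted p 0.652), so its rise was seen in the class but not in the sums. Falls in the class included C5ar2, a receptor of complement C5a (log2FC -3.36, SE 0.326, adjusted p 6.17e-07), Prelp (-2.90), a matrix proteoglycan, Ackr1 (-2.65), the chemokine-binding Duffy receptor of venules, Ntn4 (-2.52), a netrin, and Hspa1b (-4.64), an inducible heat shock protein. Hspa1b averaged 327 ± 40.4 CPM in YAP3d and 19.2 ± 30.4 CPM in YAP7d. Its log2FC ran from -6.77 to -3.55 with 1 library left out.

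Most sinusoidal identity genes fell over all cells and within the class. Of 17 sinusoidal genes tested 13 fell over all cells (median -2.08) and 12 of 17 within endothelial-like cells (median -0.89, against 12.0% of all genes in the class), where the summed level was 25686, 22616, 22938 and 25074 CPM in YAP3d and 11665, 12058 and 10651 CPM in YAP7d. The class values of the 2 groups did not overlap. Over all cells Kdr, the receptor VEGFR2, was at 349.9, 104, 509 and 474 CPM in YAP3d replicates 1 to 4 and 37.1, 41.6 and 29.3 CPM in YAP7d replicates 1 to 3 (log2FC -3.15, SE 0.484, adjusted p 0.0117). Stab2 (-2.43), a scavenger receptor, Lyve1 (-1.76), a hyaluronan receptor, Fcgr2b (-2.08), an Fc receptor, and Gata4 (-3.12), a factor that specifies sinusoidal cells, fell too over all cells. Within endothelial-like cells the falls were smaller. With 1 library left out the class log2FC ran from -0.98 to -0.86 for Kdr, from -0.66 to -0.43 for Stab2 and from -0.94 to -0.82 for Gata4. Of 10 angiocrine genes 5 fell (median -2.55) and of 13 matrix genes 5, against 0 of 5 and 0 of 13 tested without endothelial-like cells. Of 14 endothelial markers 13 fell, with summed levels of 1440.3 to 5939 CPM in YAP3d and 546 to 717 CPM in YAP7d, and without endothelial-like cells in the sums 1 of 13 tested fell.

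TGF-beta and BMP signalling, which sinusoidal cells use to set iron handling in hepatocytes, gave 1 rise and 5 falls among 13 genes, and 2 rises and 1 fall without endothelial-like cells. Bmp2, the ligand, was at 280.1, 96.8, 485 and 323 CPM in YAP3d replicates 1 to 4 and 26.96, 48.1 and 28.5 CPM in YAP7d replicates 1 to 3 (log2FC -2.93, SE 0.48, adjusted p 0.0117). The co-receptor Eng (-2.70) and the inhibitors Smad6 (-1.81) and Smad7 (-0.99) fell, and the target Id1 rose, at 54.3 to 128 CPM in YAP3d and 128 to 257 CPM in YAP7d (log2FC 1.31, SE 0.305, adjusted p 0.0246). Without endothelial-like cells Smad6 was at 0.46. Tgfb1 was at 246 to 389.9 CPM in YAP3d and 289.9 to 341 CPM in YAP7d (log2FC 0.22, SE 0.231, adjusted p 0.552) and overlapped. Dll4, a Notch ligand of endothelium, was at 6.28 to 22.9 CPM in YAP3d and 1.48 to 2.28 CPM in YAP7d (log2FC -2.97, SE 0.457, adjusted p 0.0117). Within endothelial-like cells 7 of 11 genes of the TGF-beta and BMP list fell (median -0.67), against 12.0% of all genes in the class.

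**Figure D5:**
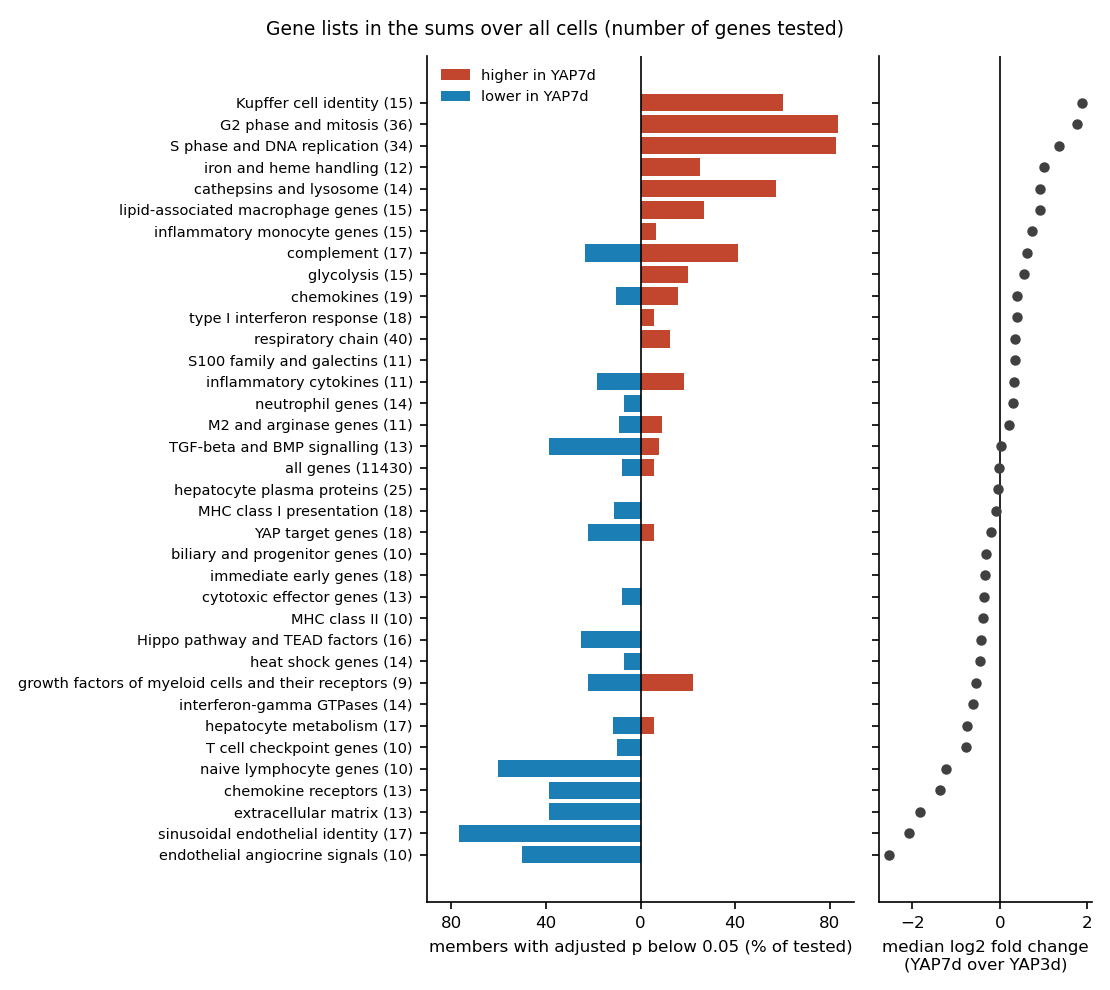
Genes of each list that rose or fell over all cells in YAP7d against YAP3d, as a share of those tested (percent, left), with the median log2 fold change of each list as a dot (right), beside the 5.84% of all genes that rose and the 7.86% that fell. The G2 and mitosis list (30 of 36 rose), the S phase list (28 of 34 rose) and the sinusoidal list (13 of 17 fell) stood furthest from these shares among the function lists drawn.

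Of 13 chemokine receptors, which direct immune cells, 5 fell and 0 rose. Cxcr6 was at 247, 127, 177 and 88.9 CPM in YAP3d replicates 1 to 4 and 38.2, 17.8 and 8.74 CPM in YAP7d replicates 1 to 3 (log2FC -2.74, SE 0.473, adjusted p 0.0125), and Cxcr3 (-1.51), Cxcr5 (-2.87), Ccr6 (-2.57) and Ccr7 (-2.15), which guide effector T cells, B cells and naive cells, fell too. Of 19 chemokines 3 rose and 2 fell: Cxcl9, a ligand of Cxcr3, was at 162, 146, 78.05 and 79.1 CPM in YAP3d replicates 1 to 4 and 13.3, 29.8 and 6.51 CPM in YAP7d replicates 1 to 3 (log2FC -2.71, SE 0.481, adjusted p 0.0131), and Cxcl13, the ligand of Cxcr5, was at 28.2 to 68.02 CPM in YAP3d and 4.81 to 18.9 CPM in YAP7d (log2FC -2.17, SE 0.502, adjusted p 0.0245). Both ligand and receptor of these 2 pairs were lower at 7 days. Among the rises were Ccl24 and Ccl6, a myeloid chemokine at 123 to 488 CPM in YAP3d and 507 to 972 CPM in YAP7d (log2FC 1.92, SE 0.491, adjusted p 0.0334). Of 10 naive lymphocyte genes 6 fell, of 11 T cell markers 8 fell and of 12 B cell markers 3 fell, beside the lower T-cell-like and B-cell-like shares of UMIs given above. Without macrophage-like and monocyte-like cells the falls were 1 of 12 chemokine receptors, 0 of 10 naive lymphocyte genes, 2 of 11 T cell markers and 0 of 12 B cell markers.

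Of 9 growth factor genes of myeloid cells and their receptors 2 rose and 2 fell, and without endothelial-like cells 1 rose and 0 fell. Csf1, which keeps macrophages alive, was at 27.2, 12.2, 19.95 and 21.2 CPM in YAP3d replicates 1 to 4 and 4.38, 2.88 and 2.59 CPM in YAP7d replicates 1 to 3 (log2FC -2.44, SE 0.316, adjusted p 0.0117). The highest YAP7d value was below the lowest of YAP3d, and WT averaged 28.8 CPM. Within endothelial-like cells Csf1 averaged 67.5 ± 19.7 CPM in YAP3d and 23.6 ± 9.52 CPM in YAP7d (log2FC -1.14, SE 0.326, adjusted p 0.0154). Its receptor Csf1r was at 71.4, 272, 119 and 101 CPM in YAP3d replicates 1 to 4 and 284, 473 and 332 CPM in YAP7d replicates 1 to 3 (log2FC 1.52, SE 0.422, adjusted p 0.0435) over all cells but at -0.81 within macrophage-like cells, where it did not pass. Csf2, the factor GM-CSF, was at 32.6, 5.29, 57.5 and 4.59 CPM in YAP3d replicates 1 to 4 and 3.33, 1.20 and 1.32 CPM in YAP7d replicates 1 to 3 (log2FC -3.39, SE 0.925, adjusted p 0.0412). Ccl2, the monocyte attractant, was at 34.9, 151, 7.63 and 40.7 CPM in YAP3d replicates 1 to 4 and 146, 90.6 and 127 CPM in YAP7d replicates 1 to 3 (log2FC 1.19, SE 0.701, adjusted p 0.272), and its receptor Ccr2 was at 106 to 263 CPM in YAP3d and 162 to 208 CPM in YAP7d (log2FC 0.27, SE 0.298, adjusted p 0.572). For both the groups overlapped.

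Of 16 Hippo and TEAD genes tested 4 fell and 0 rose. Without endothelial-like cells 1 of 13 fell, and without macrophage-like and monocyte-like cells 0 of 14. Yap1, under which transcripts of a YAP transgene may or may not be counted, was at 10.9, 5.29, 12.9 and 12.1 CPM in YAP3d replicates 1 to 4 and 3.85, 5.53 and 1.52 CPM in YAP7d replicates 1 to 3 (log2FC -1.46, SE 0.458, adjusted p 0.0631), with YAP7d replicate 2 above YAP3d replicate 2. Wwtr1 was at 31.03, 9.91, 42.3 and 29.5 CPM in YAP3d replicates 1 to 4 and 6.30, 7.69 and 4.15 CPM in YAP7d replicates 1 to 3 (log2FC -2.07, SE 0.424, adjusted p 0.0175), without overlap. Within endothelial-like cells, whose share was lower at 7 days, it averaged 114 ± 16.6 CPM in YAP3d and 98.2 ± 13.3 CPM in YAP7d (log2FC -0.15, SE 0.212, adjusted p 0.659). Tead1 was at 7.76, 2.31, 9.39 and 7.95 CPM in YAP3d replicates 1 to 4 and 1.58, 2.88 and 0.918 CPM in YAP7d replicates 1 to 3 (log2FC -1.89, SE 0.541, adjusted p 0.0479), with overlap. The scaffold Amot (-2.15) and the TEAD co-factor Vgll4 (-0.97) fell. Tead4, Sox9 and Afp were too low to be tested. In hepatocyte-like cells, to which Alb-Cre directs the transgene, Yap1 had 1, 6, 1 and 6 UMIs in YAP3d and 15, 11 and 19 in YAP7d, or 19.7, 80.5, 22.2 and 57.3 CPM against 73.3, 87.2 and 147 CPM. The groups overlapped in CPM. These values came from 9 to 18 cells per YAP3d library and 11 to 28 per YAP7d library and were not tested. Krt8, a keratin of hepatocytes and bile ducts, was at 788, 792, 288 and 516 CPM in the same cells of YAP3d and at 2644, 1483 and 3233 CPM in those of YAP7d, without overlap and likewise not tested.

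Of 18 YAP target genes tested 1 rose and 4 fell, against 5.84 and 7.86% of all genes. Without endothelial-like cells 1 of 15 rose and 0 fell, and without macrophage-like and monocyte-like cells 0 of 14 rose and 2 fell. The promoters of the riser Axl, a receptor kinase, at chr7:25788684-25788983 on the minus strand, and of Crim1, a transmembrane regulator of BMP that fell, at chr17:78199998-78200297 on the plus strand, are printed to show the TEAD element GGAATG, in capitals, with CCAAT also in capitals (RefSeq GRCm38.p6, 250 bases before to 50 after the start).
Axl: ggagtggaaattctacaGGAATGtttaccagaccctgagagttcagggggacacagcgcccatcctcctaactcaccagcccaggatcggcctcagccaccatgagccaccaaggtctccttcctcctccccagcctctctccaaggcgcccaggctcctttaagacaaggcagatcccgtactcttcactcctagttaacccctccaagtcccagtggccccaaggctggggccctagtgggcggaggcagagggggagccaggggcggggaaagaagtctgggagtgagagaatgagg
Crim1: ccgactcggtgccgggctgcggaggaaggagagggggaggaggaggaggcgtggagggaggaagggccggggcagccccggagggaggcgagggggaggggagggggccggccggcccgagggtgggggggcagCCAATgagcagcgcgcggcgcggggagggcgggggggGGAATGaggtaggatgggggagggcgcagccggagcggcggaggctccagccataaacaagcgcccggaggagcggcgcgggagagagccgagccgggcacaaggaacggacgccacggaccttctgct
Each held 1 GGAATG, counted on both strands, and the 2 genes, picked because they hold it, moved in opposite directions. The windows of Amotl1, which fell, and Gadd45b, which did not pass, held none. GGAATG lay in 7 of the 18 promoters found for 16 of 24 listed targets (38.9%), against 14.7% of all promoters. Axl, also a receptor of macrophages, was at 24.8, 89.5, 36.4 and 35.7 CPM in YAP3d replicates 1 to 4 and 111, 172 and 117 CPM in YAP7d replicates 1 to 3 (log2FC 1.65, SE 0.399, adjusted p 0.0278). Crim1 was at 48.9, 23.5, 72.2 and 53.3 CPM in YAP3d replicates 1 to 4 and 14, 17.8 and 8.02 CPM in YAP7d replicates 1 to 3 (log2FC -1.76, SE 0.365, adjusted p 0.0179). Amotl1 (-3.14), Amotl2 (-2.24) and Ptpn14 (-2.76), which restrain YAP in turn, fell with it, although Amotl2 was at 0.28 without endothelial-like cells, and within endothelial-like cells 4 of 5 targets tested fell (median -1.11), against 12.0% of all genes in the class. The widely used targets Ctgf, Cyr61 and Ankrd1 overlapped between the groups. Ctgf was at 1.32 to 6.46 CPM in YAP3d and 0.875 to 8.65 CPM in YAP7d, Cyr61 at 5.29 to 20.1 CPM in YAP3d and 8.23 to 15.4 CPM in YAP7d and Ankrd1 at 0.33 to 8.53 CPM in YAP3d and 1.60 to 23.8 CPM in YAP7d (adjusted p 0.905, 0.841 and 0.551, edgeR).

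Plasma protein genes of hepatocytes overlapped between the 2 times. Of 25 plasma protein genes 0 rose and 0 fell (median -0.04), and of 17 hepatocyte metabolism genes 1 rose and 2 fell. Of the latter, Ass1, an enzyme of the urea cycle, was at 265, 94.5, 235 and 149 CPM in YAP3d replicates 1 to 4 and 65.6, 66.6 and 42.5 CPM in YAP7d replicates 1 to 3 (log2FC -1.49, SE 0.31, adjusted p 0.018), without overlap. Alb was at 853, 182, 195 and 76.7 CPM in YAP3d replicates 1 to 4 and 304, 394 and 109 CPM in YAP7d replicates 1 to 3 (log2FC -0.09, SE 0.689, adjusted p 0.946), with YAP3d replicate 1 highest of all. Krt19, a bile duct keratin, was at 3.96 to 19.4 CPM in YAP3d and 3.67 to 11.2 CPM in YAP7d (log2FC -0.02, SE 0.541, adjusted p 0.982), and 0 of 10 biliary and progenitor genes passed. At the SE of Alb, a difference of its size was not detectable.

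Of 15 glycolysis genes 3 rose over all cells and 0 fell, Gapdh at 661, 1035, 590.4 and 644 CPM in YAP3d replicates 1 to 4 and 1329, 1183 and 1752 CPM in YAP7d replicates 1 to 3 (log2FC 1.15, SE 0.275, adjusted p 0.0269), Tpi1 at 88.9 to 158 CPM in YAP3d and 228 to 247 CPM in YAP7d (log2FC 1.14, SE 0.209, adjusted p 0.0136) and Ldha at 352 to 524 CPM in YAP3d and 609 to 663 CPM in YAP7d (log2FC 0.76, SE 0.19, adjusted p 0.0307). YAP3d replicate 2 again lay nearest to YAP7d. Within endothelial-like cells 8 of 10 glycolysis genes rose, against 12.8% of all genes tested in the class, and within NK-like cells 5 of 10, against 9.89%. All 40 respiratory chain genes had a log2FC above 0 (median 0.36), 16 lay higher without overlap (9.04% of all genes tested did), and 5 rose past the test (5.84% of all genes did). With each cell thinned to 2000 UMIs, 1 of the 40 rose past the test. Cox5a, a subunit of cytochrome oxidase and 1 of the 5, was at 338 to 567 CPM in YAP3d and 688 to 932 CPM in YAP7d (log2FC 1.10, SE 0.208, adjusted p 0.0146). Of 18 type I interferon genes 1 rose and of 14 heat shock genes 1 fell. Immediate early genes, which the digestion of tissue is known to induce, gave 0 of 18 over all cells (median -0.34). Within classes 9 of 16 fell in endothelial-like cells against 12.0% of all genes and 7 of 13 in NK-like cells against 7.16%, where the summed level was 12283, 9336, 11466 and 9959 CPM in YAP3d and 4990.4, 4894 and 5273 CPM in YAP7d. The groups did not overlap there. In T-cell-like cells 2 of 17 fell against 0.209% of all genes in the class. Their summed level was 8138 to 10333 CPM in YAP3d and 6197 to 6745 CPM in YAP7d. In macrophage-like cells 0 of 18 fell and in B-cell-like cells 0 of 15. The part of digestion was not tested.

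Of the remaining lists, over all cells 0 genes passed among 14 interferon-gamma GTPases, 11 S100 and galectin genes, 6 cholangiocyte, 10 plasmacytoid dendritic, 12 NK, 6 plasma cell and 1 erythroid marker tested. There was 1 fall and no rise among 14 neutrophil genes, 11 neutrophil markers, 15 hepatocyte markers, 13 cytotoxic genes, 10 T cell checkpoint genes and 2 basophil and mast cell markers. Stellate markers had 2 falls of 9. There were as many rises as falls among inflammatory cytokines (2 and 2 of 11), M2 and arginase genes (1 and 1 of 11) and conventional dendritic markers (1 and 1 of 12), and 1 rise among 15 inflammatory monocyte genes. Within endothelial-like cells 4 of 7 interferon-gamma GTPases tested fell (12.0% of all genes in the class did), and of 8 S100 and galectin genes 2 rose and 1 fell. Within NK-like cells 3 of 5 T cell checkpoint genes fell (7.16% of all genes did) and 2 of 8 S100 and galectin genes rose (9.89%).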

How the data were processed

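Single-cell RNA-seq libraries were made with the 10x Genomics 3′ chemistry from collagenase-treated whole livers, 1 per mouse. Per the labels and the study's methods, the authors aligned reads to mm10 and counted them with Cell Ranger, and the deposited table holds raw UMI counts per gene and cell, not normalized. Counts of cells with at least 200 genes were summed per library (35 of 8562 cells of the series removed). Low genes were removed with filterByExpr, libraries scaled with TMM, and 3 YAP7d compared with 4 YAP3d libraries by the robust quasi-likelihood test of edgeR 4.0.16 (R 4.3.3), with 0.05 as the limit after Benjamini-Hochberg adjustment. An alternative was DESeq2 1.42.0. Whether mice shared a litter is not given, so p-values measure the spread between these libraries. Cells were clustered with scanpy 1.11.5 (Leiden, resolution 1, 24 clusters). Of 6 classes set for tests, the 5 with at least 10 cells in each library were tested (not monocyte-like). Shares were compared by exact permutation over 35 assignments. Genes named were the 15 largest rises and falls with a mean of at least 50 CPM in 1 group and no overlap, fixed genes of the YAP and myeloid pathways, list members of highest level, and list members where a count was explained. Genes of single classes were the 5 largest in each direction by the same limits, or list members, chosen after their values were seen. Members, lists and tests were chosen with earlier results of these data known. Symbols were matched to RefSeq GRCm38.p6 (22794 of 27998). On simulated sums over all cells (11430 genes, 200 changed by 2 on the log2 scale) edgeR recovered 75% with 7.41% of calls false.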

Additional observations from a re-analysis of the deposited data

Results flagged for a closer look

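Within the 4 YAP3d libraries, 11 of 111 values set 1 library far from the other 3 (gap over range above Dixon's critical value for 95% confidence), where chance flags about 1 in 20 groups. YAP3d replicate 2 was the library that stood apart in 8 of them. It held 30.3% of its UMIs in monocyte-like cells against 2.07 to 4.57% in the others, and its levels were 1266 CPM of Chil3 (32.6 to 113), 1499 CPM of Ctss (436 to 586), 488 CPM of Ccl6 (123 to 172), 86.9 CPM of Ccl24 (30.5 to 36.5), 1035 CPM of Gapdh (590.4 to 661), 45.6 CPM of Cyp4b1 (192 to 219) and 5.95 CPM of Amotl2 (29.8 to 31.7). These values lay on the side of YAP7d in each case.

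The other 3 values came from the other libraries. Alb was at 853 CPM in YAP3d replicate 1 against 76.7 to 195 CPM, Ccr3 at 2.35 CPM in YAP3d replicate 3 against 7.76 to 8.26 CPM, and Cd74 at 9132 CPM in YAP3d replicate 4 against 6141 to 6463 CPM.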

How the results depend on the processing

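The count of genes over all cells (1566) stayed within 1.5 times with DESeq2, RLE size factors, library totals alone, no filter, the stricter cell filter, cells of at least 4000 UMIs and the WT libraries in the fit. It was 919 with cells thinned to 2000 UMIs, 889 without endothelial-like cells, 598 without macrophage-like and monocyte-like cells, 0 with the Gm10709 term, and 0 to 3232 when 1 library was left out. The replicate block gave 187, and the numbers did not pair the libraries (correlations of 0.219, -0.150 and -0.285). Of the 95 genes named over all cells, 94 gave the same call with DESeq2, 42 with the block and 11 with the Gm10709 term. Terms for Gm10709 within classes and sums without doublets or without hepatocyte-like and cholangiocyte-like cells were chosen after seeing the data. The causes of these changes were not tested.

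Within classes, macrophage-like cells gave 38 calls with DESeq2, 193 without a filter, 14 with the block, 1 with the Gm10709 term and 1 to 538 with 1 library left out. T-cell-like cells gave 32 with library totals, 310 without a filter, 264 with the block, 7 with the term and 9 to 99. NK-like cells gave 374 with DESeq2, 138 with the term and 373 to 588. Endothelial-like cells gave 516 with the term and 821 to 1201, and B-cell-like cells 52 without a filter and 0 to 3.

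With 1 library left out, the difference in median UMIs per cell ran from 2509 to 5386 and in median genes from 611 to 963, and such a design cannot pass 0.05. The mitochondrial difference became 0.0104 points in cells of at least 4000 UMIs. As shares of cells the differences became 0.64 points in hepatocyte-like, 2.15 in cDC-like and 0.79 in pDC-like cells, and neutrophil-like cells gave 0.39 at 4000 UMIs. With 1 library left out, hepatocyte-like shares ran from -0.69 to 0.85, neutrophil-like from -0.67 to 0.0303 and pDC-like from -0.72 to 0.23.

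Some log2 fold changes reversed, among them those of genes that had passed, Lgmn, Slc40a1, Smad6 and Amotl2. Without macrophage-like and monocyte-like cells these were Alb 0.97, Cd74 0.37, Cyr61 0.76, Krt19 1.06, Lgmn -0.34, Slc40a1 -0.78 and Tgfb1 -0.0341. Without endothelial-like cells they were Amotl2 0.28, Ccr2 -0.0837, Cyr61 0.17, Slbp -0.0112 and Smad6 0.46. With the block they were Ctgf -0.28, Cyr61 0.37, Krt19 0.24 and Slbp -0.0632, and with the Gm10709 term Ccr2 -0.12, Cyr61 0.18 and Slbp -0.0556. Thinned cells gave Alb 0.79 and Slbp -0.13, library totals Slbp -0.14, the stricter filter Krt19 0.0022, and sums without hepatocyte-like and cholangiocyte-like cells Alb 0.0485. With 1 library left out, Alb ran from -0.45 to 0.93, Ankrd1 from -1.12 to 1.49, Ctgf from -1.32 to 0.66, Cyr61 from -0.43 to 0.27, Krt19 from -0.33 to 0.39 and Slbp from -0.11 to 0.16.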
